A study of Rattus norvegicus with 14 samples.

Results

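The response of IEC-6 cells to NS-398 was compared between the 2 sets of arrays that the submitters distinguished only by a suffix, the letter b, on the array labels. IEC-6 cells were derived from the crypts of the rat small intestine and are not transformed. Members were chosen by a rule on arrays and probe sets: of the 14 arrays in the series, the 12 from drugs present in both sets were used, and of 31042 probe sets other than array controls, the 17346 with a signal of at least 100 on at least 2 of these arrays were tested. For each probe set the effect of NS-398 in set b, less its effect in the set without the suffix (here the unsuffixed set), gave the difference between sets.

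Cells were exposed for 72 h to 100 µM NS-398, or to 1 µM SC-560 or DMSO, which together formed the background against which NS-398 was read. NS-398 prefers cyclooxygenase-2 and SC-560 prefers cyclooxygenase-1, and DMSO was the solvent. In set b there were 2 NS-398 arrays against 2 SC-560 and 2 DMSO arrays, and the unsuffixed set had the same numbers. Indomethacin had been hybridised in set b only and was not used. The labels name the same cell line for all groups and mention no genetic change. What the suffix stands for is not given in the sources used here. Cultures were pooled and several chips were hybridised per biological sample, according to the submitters' design text, so the p-values below reflect array-to-array spread that may be technical.

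Cyclooxygenases make the precursor of the prostaglandins, lipid signals that take part in repair and defence of the intestinal lining. Drugs of this class can also act on cells apart from prostaglandin synthesis, and NS-398 and indomethacin are described by the submitters as slowing the migration of IEC-6 cells, which SC-560 is described as not doing. Growth state, oxygen and amino acid supply are known to shape expression of cell cycle, glycolytic and amino acid synthesis genes in cultured epithelial cells.

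The 2 sets differed on arrays without NS-398. In DMSO and SC-560 arrays, 1166 of the tested probe sets (6.72%) differed by at least 1 on the log2 scale between set b and the unsuffixed set. Cdx2, the homeobox factor of intestinal epithelium, had signals of 3072 to 3660 in these arrays of set b and of 62.5 to 124 in those of the unsuffixed set. The ratio of 3′ to 5′ actin signal, a measure of RNA and labelling quality, was 1.22 to 1.34 on set b arrays and 1.5 to 1.64 on unsuffixed ones, with NS-398 arrays inside the range of their set or, on 1 set b array, just under it. For hexokinase the order of the sets was the other way. Its ratio in set b was 1.721 and 1.821 with NS-398 and 1.545 to 2.069 without it. In the unsuffixed set it was 1.149 and 1.632 with NS-398, on either side of the 1.282 to 1.584 without it. For Gapdh the ratio was 0.9021 to 0.9998 over the 12 arrays. The part of these ratios in the results was not tested. Median array signals were 97.8 to 118.1, and 49.7% to 52.4% of probe sets reached 100. Of the epithelial markers, Tjp1, Krt8 and Cdh1 had signals above 2600 on all 12 arrays, whereas Krt18 (at most 54.5) and Epcam (at most 77.2) did not reach 100. The mesenchymal filament Vim was at 21900 to 25000, and of the immune and endothelial markers Ptprc and Pecam1 stayed under 50. On the same list Cd14 was at 2871 to 4053 and Tek at 181.6 to 801.3, and Kdr reached 163.9 and Cd68 126.1. The summed signal of that list was 4777 to 4940 with NS-398 and 4139 to 4427 without it in set b, and 4531 to 4851 with NS-398 and 4221 to 4362 without it in the unsuffixed set. In the same order, intestinal markers summed to 9298 to 9783 and 6172 to 7225, and to 5155 to 5200.5 and 4578 to 5333. Fibroblast and smooth muscle markers summed to 113550 to 117670 and 109740 to 127170, then 80413 to 84283 and 85830 to 93804. Epithelial markers summed to 24203 to 25521 and 23096 to 25853, then 28532 to 28888 and 29194 to 30249. These are sums of linear signals, in which bright genes weigh most. Cdx2, on both the intestinal and the epithelial list, was at 4870 to 5310 with NS-398 in set b. The sums are thus no measure of cell identity, and their part in the results was not tested. In all, 12 of 23 epithelial, 11 of 26 intestinal, 14 of 20 fibroblast and smooth muscle and 3 of 18 immune and endothelial markers were tested.

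The effect of NS-398 differed between the sets for 1490 probe sets at an adjusted p under 0.05 (limma, Benjamini-Hochberg over all probe sets tested). It was higher in set b for 788 (4.54%) and lower for 702 (4.05%), and 149 differences reached 1 on the log2 scale. Of the 1490, 246 (16.5%) already differed between sets by at least 1 in DMSO and SC-560 arrays, against 6.72% of all tested. For 170 of these 246 (69.1%) the sets lay closer with NS-398 than without it. That share was 47.9% over all 1490 and 48.0% over all tested. The part of such differences without NS-398 in the calls was not tested. As a yardstick, SC-560 less DMSO differed between sets for 3 probe sets (0.0173%), or 0 to 11 when 1 DMSO or SC-560 array was left out, with 1023 at an unadjusted p under 0.05 against 4067 for NS-398. These contrasts are unlike: SC-560 less DMSO sets 2 arrays against 2 in each set and NS-398 sets 2 against 4 (median standard error 0.182 for SC-560 and 0.157 for NS-398), and the doses were 1 µM and 100 µM. The count for NS-398 depended on its own few arrays: it was 624 without unsuffixed NS-398 replicate 2, 839 without unsuffixed replicate 1 and 986 without set b replicate 2. None of the 1490 changed sign when any 1 array was left out.

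Within set b NS-398 changed 3060 probe sets, 1565 up and 1495 down, and within the unsuffixed set 2738, 1356 up and 1382 down. A total of 942 were called in both, 793 in the same and 149 in opposite directions. The set b count was 1667 without set b NS-398 replicate 2 and 1958 without replicate 1, and the unsuffixed count was 1073 without unsuffixed NS-398 replicate 2 and 1369 without replicate 1. Across the 17346 probe sets the NS-398 effects of the sets correlated with a Pearson r of 0.293, a description across probe sets that share arrays and no control between sets.

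A probe set was called reversed where NS-398 passed the threshold in both sets with opposite signs and the difference also passed. It was called limited to 1 set where the effect passed there, did not pass in the other set, and the difference passed. Reversal with NS-398 up in set b and down in the unsuffixed set held for 81 probe sets (0.467% of those tested), and the opposite for 68 (0.392%). Limited to set b were 349 rises (2.01%) and 293 falls (1.69%). Limited to the unsuffixed set were 259 rises (1.49%) and 266 falls (1.53%). A further 76 (0.438%) moved the same way in both sets by different amounts, and 98 (0.565%) passed for the difference but in neither set alone. Some of these had low signals throughout the other set: 24 of the 349 rises limited to set b had all unsuffixed arrays under 100, as did 8 of the 293 falls, and 9 of the 259 rises and 13 of the 266 falls limited to the unsuffixed set had all set b arrays under 100. Reversed probe sets numbered 55 without unsuffixed NS-398 replicate 2, 87 without unsuffixed replicate 1 and 99 without set b replicate 2. The 1167 limited to 1 set numbered 507 without unsuffixed NS-398 replicate 2 and 658 without replicate 1.

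**Figure D1:**
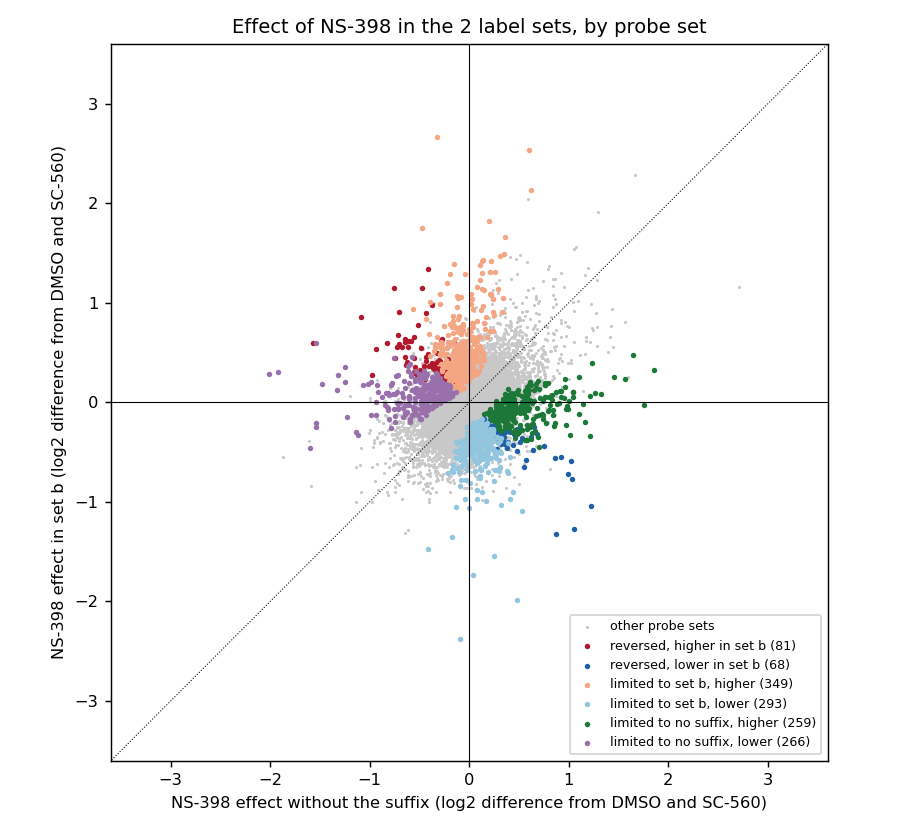
Each point is a probe set, with the log2 effect of NS-398 in set b (vertical) against that in the unsuffixed set (horizontal). Coloured points are the 6 reversed or limited classes, with their numbers. Grey points include 76 probe sets called for the difference that moved the same way in both sets. They also include 98 that passed for the difference but in neither set alone. The 81 and 68 reversed probe sets lie in the upper left and lower right of the plot, and the dotted line marks equal effects.

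Among genes reversed with NS-398 lower in set b, Il33 had the largest difference. It encodes an alarmin, a cytokine of the interleukin-1 family held in the nucleus and released from damaged epithelial cells. Its signal was 1467 and 1427 on NS-398 arrays of set b, against 3491 and 3950 with DMSO and 3666 and 3188 with SC-560. In the unsuffixed set it was 1094 and 1397 with NS-398, against 588 and 568 with DMSO and 558 and 571 with SC-560. NS-398 arrays were thus the lowest in set b and the highest in the unsuffixed set, with no overlap. Here and below, a lack of overlap describes genes picked for their differences. Its share over all probe sets is not given, so it lends no support. The log2 effect was -1.27 ± 0.09 in set b and 1.05 ± 0.09 in the unsuffixed set (standard errors here and below), a difference of -2.32 ± 0.13 (limma adjusted p = 8.88e-08).

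Cadm1, an immunoglobulin-type adhesion molecule between epithelial cells, followed the same pattern. Signals were 463 and 506 with NS-398 in set b, against 822 to 935 with DMSO and SC-560, and 1078 and 1016 with NS-398 in the unsuffixed set, against 419 to 605. The difference was -1.81 ± 0.15. NS-398 lay outside the range of the other arrays in both sets.

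Lgals4, an intestinal galectin, was at 645 and 619 with NS-398 and 853 to 978 without it in set b, and at 231 and 226 with NS-398 and 115 to 142 without it in the unsuffixed set. Marcks, an actin-binding substrate of protein kinase C, was at 296 and 303 against 363 to 429 in set b, and at 1215 and 1380 against 694 to 997 in the unsuffixed set. The connexin Gja3 and the POU-domain factor Pou2f2 completed the 6 largest of this kind, with differences of -0.9998 and -1.15. Odc1, the first enzyme of polyamine synthesis, reversed as well: 2055 and 2249 with NS-398 in set b against 2322 to 2935, and 4014 and 4109 in the unsuffixed set against 2744 to 3065, a difference of -0.76 ± 0.10 (limma adjusted p = 0.000285). The difference between sets was called for all 7 in every fit that left out 1 array, which does not cover the effect within each set (limma adjusted p in set b 0.0321 for Marcks and 0.0273 for Gja3).

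In the other direction, Nr4a1, an orphan nuclear receptor induced within minutes by many stimuli, reversed at signals well above 100 on all 12 arrays. Its signal was 1938 and 1635 with NS-398 in set b, against 495 and 698 with DMSO and 758 and 783 with SC-560. In the unsuffixed set it was 2931 and 2580 with NS-398, against 3422 and 3916 with DMSO and 3403 and 4073 with SC-560. The log2 effects were 1.34 in set b and -0.42 in the unsuffixed set, a difference of 1.76 ± 0.16 (limma adjusted p = 1.53e-05).

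Fos, a subunit of the AP-1 transcription factor, was at 2399 and 1733 with NS-398 and 979 to 1029 without it in set b, and at 3495 and 2826 with NS-398 and 3509 to 4468 without it in the unsuffixed set (difference 1.35 ± 0.16). Even the highest NS-398 signal of set b was under every unsuffixed signal of Fos. Renbp, an epimerase of amino sugar metabolism, was at 1373 and 1296 against 477 to 733 in set b, and at 717 and 634 against 808 to 1131 in the unsuffixed set. Ramp3, which pairs with the calcitonin receptor-like receptor, was at 2064 and 2033 against 1068 to 1642 in set b, and at 1230 and 1390 against 2234 to 2460 in the unsuffixed set. For these genes, among NS-398, DMSO and SC-560 arrays, those with NS-398 were the highest of set b and the lowest of the unsuffixed set.

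Nipal1, a magnesium transporter, had a larger difference (1.91 ± 0.28) at signals of 225 and 194 with NS-398 against 47.2 to 84.5 in set b, and of 70.3 and 84 against 125 to 299 in the unsuffixed set, several of them under 100. The keratin Krt19 was at 766 and 741 against 345 to 569 in set b, but at only 49 and 44.8 against 72.3 to 136 in the unsuffixed set. Plk2, a kinase induced by p53 and by serum, was at 1271 and 1263 against 736 to 865 in set b and at 546 and 631 against 797 to 936 in the unsuffixed set (difference 1.21 ± 0.13). Relb, a subunit of NF-kB, was at 196 and 208 against 87.7 to 156 in set b, and at 225 and 198 against 320 to 386 in the unsuffixed set.

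**Figure D2:**
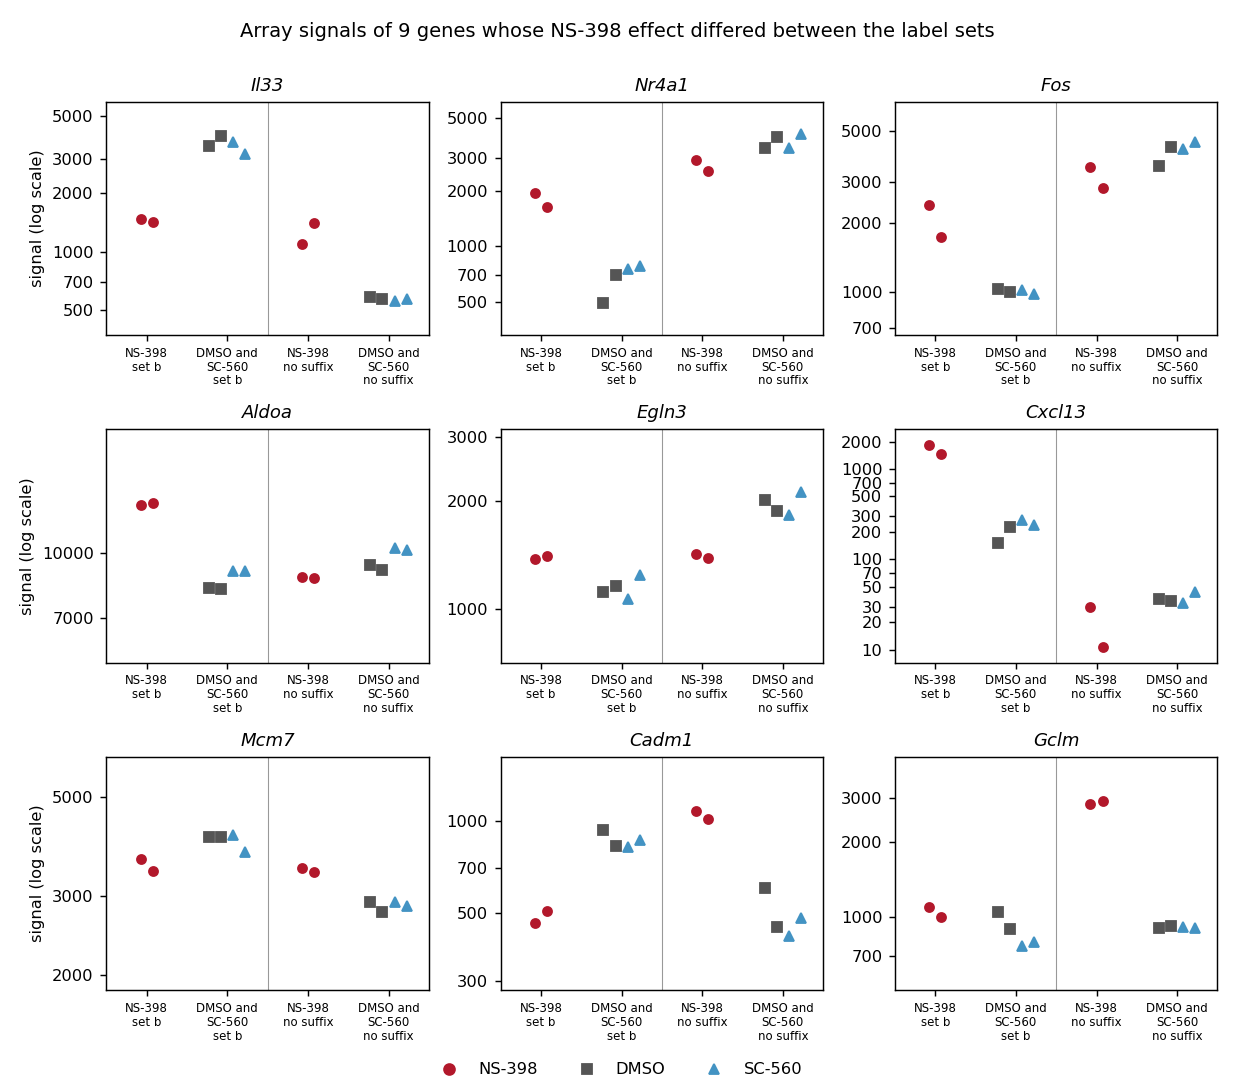
Signals on the 12 arrays (vertical, log scale) for 9 genes whose NS-398 effect differed between sets, with NS-398 arrays left of the DMSO and SC-560 arrays of the same set and each point 1 array. Il33 at 1427 and 1467 lies below the other set b arrays while its unsuffixed values of 1094 and 1397 lie above theirs, and Nr4a1 and Fos show the opposite order.

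Among rises limited to set b, Cxcl13, a chemokine that attracts B cells, was at 1864 and 1478 with NS-398 in set b, against 152 and 227 with DMSO and 274 and 244 with SC-560. On all unsuffixed arrays it was under 100, at 29.5 and 10.7 with NS-398 and 32.5 to 43.9 without it. The log2 difference was 2.98 ± 0.24 (limma adjusted p = 4.84e-06), the largest among the genes named.

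Tff2, a trefoil peptide of mucus, was at 421 and 301 with NS-398 in set b against 6.98 to 42.6, and at 65.3 and 44.3 against 5.24 to 47.6 in the unsuffixed set, so that its limitation to set b rests on signals under 100 elsewhere. The aldo-keto reductase Akr1b7 (318 and 313 against 58.3 to 144 in set b) and the keratin Krt23 (259 and 257 against 49.9 to 98.5) were likewise under 100 on every unsuffixed array. Tff2 and Krt23 reached 100 only on the NS-398 arrays of set b, and Akr1b7 beyond them only on set b SC-560 replicate 1 (144). The filter needs 2 arrays, so these genes passed it through NS-398, had to differ, and their calls lend no support. In 90 tested probe sets no DMSO or SC-560 array reached 100, which leaves out those like Akr1b7. All such probe sets stay in the class counts. Since 50 was added to each signal before the log, differences at low signals depend on that number. With 16 and with 200 added, the difference was 2.32 and 1.12 for Tff2, 1.99 and 0.872 for Akr1b7, 1.90 and 0.794 for Krt23, 2.40 and 1.02 for Nipal1, and 1.70 and 0.868 for Krt19.

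Neu1, the lysosomal sialidase, was measured well in both sets. It was at 1199 and 1482 with NS-398 in set b, against 500 to 596, and at 404 and 412 with NS-398 in the unsuffixed set, inside the range of 365 to 585 of the other arrays. Adh1c, an alcohol dehydrogenase, was at 445 and 353 against 20.5 to 107 in set b, and at 693 and 799 against 456 to 477 in the unsuffixed set. Adh1c thus moved the same way in both sets, but its unsuffixed rise of 0.62 did not pass (limma adjusted p = 0.0974). Its difference of 1.52 ± 0.34 lost its call in limma without unsuffixed NS-398 replicate 1 (adjusted p = 0.0657) and without set b NS-398 replicate 1 (adjusted p = 0.0603).

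Falls limited to set b included F13a1, the A chain of coagulation factor XIII, at 107 and 188 with NS-398 against 715 to 1215 in set b, and under 100 on all unsuffixed arrays. Cxcl3, a chemokine for neutrophils, was at 251 and 293 against 547 to 729 in set b, and at 194 and 358 against 107 to 206 in the unsuffixed set, where the groups overlapped. The muscle-type enolase Eno3 was at 590 and 541 against 1330 to 1737 in set b and at 177 and 243 against 199 to 281 in the unsuffixed set. Smc4, a condensin subunit, was at 866 and 438 against 1155 to 1225 in set b, its NS-398 arrays lying far apart. Ms4a7 and the receptor Gpr12 completed this class, with differences of -1.38 and -1.34.

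In the unsuffixed set alone NS-398 raised Fmo1, a flavin monooxygenase that oxidises drugs, to 2077 and 1681, against 635 to 908 without it. In set b the signals were 114 and 104 against 92.7 to 116, near the threshold of 100. Epha4, an ephrin receptor, was at 2183 and 2497 against 960 to 1162 in the unsuffixed set, and at 536 and 580 against 573 to 630 in set b (difference -1.22 ± 0.11, limma adjusted p = 1.35e-05). Epha4 signals with NS-398 were above all others in the unsuffixed set and overlapped the others in set b.

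The calcium sensor Vsnl1 was at 762 and 778 against 298 to 352 in the unsuffixed set and at 205 and 299 against 192 to 306 in set b. Lum, a proteoglycan that binds collagen, was at 246 and 271 against 25.8 to 54.8 in the unsuffixed set, and under 50 on all set b arrays. Lum reached 100 only on the unsuffixed NS-398 arrays, so it had to differ, and its difference was -2.44 with 16 and -0.919 with 200 added before the log. Tff1, the trefoil peptide of stomach mucus, was at 563 and 291 against 38.9 to 102, with all set b arrays under 100. Besides NS-398 arrays, Tff1 reached 100 only on unsuffixed SC-560 replicate 2 (102). It too passed the filter through NS-398, so its call lends no support. Pcdh20, a protocadherin, was at 473 and 648 against 133 to 184, again with all set b arrays under 100. The limma call for Tff1 was lost without unsuffixed NS-398 replicate 1 (adjusted p = 0.104) and set b NS-398 replicate 1 (adjusted p = 0.069), and that for Pcdh20 without unsuffixed NS-398 replicate 2 (adjusted p = 0.0608).

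Among falls limited to the unsuffixed set, Drp2, a relative of dystrophin, was at 123 and 73.9 with NS-398 against 487 to 519, and at 74.9 and 88.2 against 46.5 to 84.1 in set b (difference 2.22 ± 0.23, limma adjusted p = 4.63e-05). Postn, a secreted matrix protein of connective tissue, was at 253 and 336 against 882 to 979 in the unsuffixed set, and at 397 and 347 against 281 to 586 in set b. Abi3bp, another matrix protein, was at 1043 and 798 against 2161 to 2630, and at 606 and 477 against 391 to 516 in set b. NS-398 arrays of these genes were the lowest of the unsuffixed set and overlapped the others in set b.

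Akap12, a scaffold for protein kinase A, was at 139 and 145 against 372 to 486 in the unsuffixed set and at 477 and 426 against 357 to 507 in set b. Sult1a1, a sulfotransferase for phenols, was at 156 and 99.8 against 383 to 528, with all set b arrays under 100. Them5, an acyl-CoA thioesterase, was at 110 and 99.2 against 309 to 539 in the unsuffixed set and at 389 and 315 against 448 to 617 in set b. Them5 thus moved the same way in both sets, but its set b effect of -0.46 did not pass (limma adjusted p = 0.0755). Its call for the difference was lost without unsuffixed NS-398 replicate 2, where the difference was 1.08.

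Gene lists were read as counts of members called, beside the share of all 9772 named genes tested, each represented by its brightest probe set. Of these genes 5.79% were called higher in set b for the difference and 4.66% lower. NS-398 raised 10.6% and lowered 8.97% in set b, and raised 8.89% and lowered 9.49% in the unsuffixed set. The median over all genes was 0.01 for the difference, -0.00432 for the set b effect and -0.00904 for the unsuffixed effect, all on the log2 scale.

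**Figure D3:**
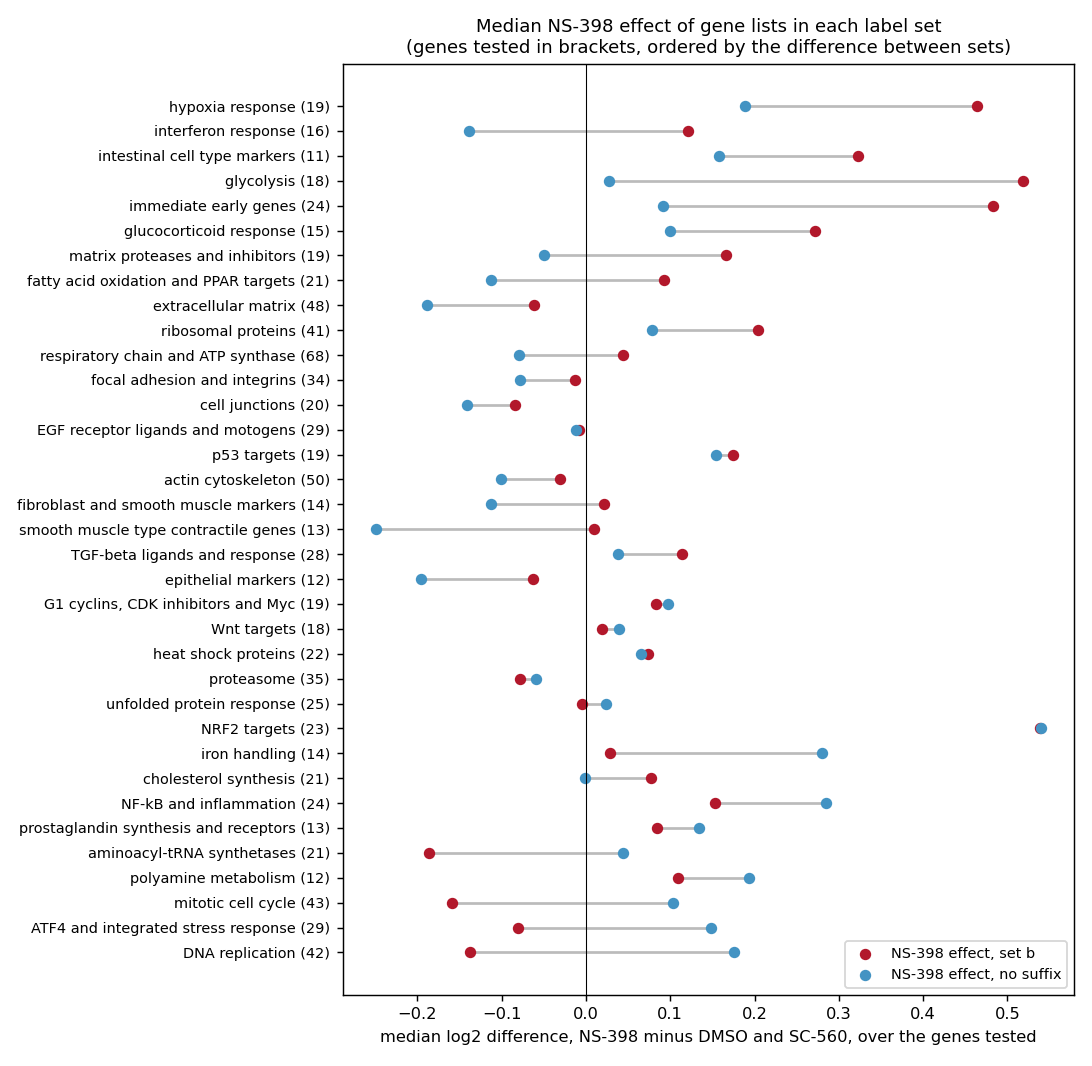
Median log2 effect of NS-398 over the genes tested of each list, in set b (red) and the unsuffixed set (blue), with lists ordered by the median of the gene-by-gene difference. Hypoxia response, glycolysis and immediate early genes had medians of 0.46, 0.52 and 0.48 in set b against 0.19, 0.03 and 0.09 in the unsuffixed set, while DNA replication and mitotic genes had medians of -0.14 and -0.16 in set b against 0.18 and 0.10.

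Immediate early genes, which encode transcription factors made within minutes of a stimulus, were called higher in set b for 9 of 24 and lower for 0. NS-398 raised 17 and lowered 1 in set b, and raised 5 and lowered 4 in the unsuffixed set, with a median difference of 0.28. In DMSO and SC-560 arrays these genes had a median of -0.67 for set b less the unsuffixed set. Besides Nr4a1 and Fos, Egr2 reversed (580 and 511 against 299 to 442 in set b, 880 and 800 against 1064 to 1202 in the unsuffixed set). Nr4a3 was at 883 and 908 with NS-398 against 268 to 398 in set b, and at 1703 and 1865 against 1543 to 1928 in the unsuffixed set (difference 1.28 ± 0.16). Jun, the partner of Fos in AP-1, was at 5707 and 5181 against 3961 to 4556 in set b, and at 8556 and 8101 against 8863 to 9729 in the unsuffixed set, where the fall did not pass (limma adjusted p = 0.0673). Nr4a2, Junb, Fosb and Ier3 were also called, and each lost its call without unsuffixed NS-398 replicate 1 and without at least 1 further array (highest limma adjusted p 0.101 for Nr4a2 and 0.169 for Fosb). Without unsuffixed NS-398 replicate 1, 5 of the 9 were called.

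Listed glycolytic genes and their transporters were called higher in set b for 6 of 18 and lower for 0. The muscle-type enolase Eno3, called lower in set b, was not on this list, and the count of 0 depends on its absence. NS-398 raised 14 and lowered 1 in set b, against 3 raised and 1 lowered in the unsuffixed set, with a median difference of 0.28. Aldoa, the aldolase that splits the six-carbon sugar, was at 12962 and 13122 with NS-398 in set b, against 8220 and 8204 with DMSO and 9029 and 9043 with SC-560. In the unsuffixed set it was at 8727 and 8711 with NS-398, against 9321 and 9108 with DMSO and 10258 and 10172 with SC-560. It therefore reversed, with a difference of 0.75 ± 0.06 (limma adjusted p = 2.05e-06).

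Ldha, which turns pyruvate into lactate, was at 14996 and 15374 against 10296 to 10912 in set b, and at 10052 and 10454 against 9824 to 10584 in the unsuffixed set. Slc16a1, a lactate transporter, was at 3506 and 3782 against 2102 to 2228 in set b. In the unsuffixed set it was at 2129 and 2123 against 2176 to 2539 (difference 0.88 ± 0.09). Gpi, glucose-6-phosphate isomerase, was at 7054 and 6770 against 4419 to 4677 in set b, and at 4822 and 5194 against 4821 to 5529 in the unsuffixed set. Eno2 and Pfkp were called too, with differences of 0.79 and 0.65, and Pfkp lost its call without unsuffixed or set b NS-398 replicate 1. Eno3, named above, belongs to muscle glycolysis and was left out of the list counts. It moved the other way, with a difference of -1.18 ± 0.16 (limma adjusted p = 0.000452).

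Genes of the hypoxia response, driven by the factor HIF-1, were called higher in set b for 8 of 19 and lower for 1, with a median difference of 0.34. NS-398 raised 15 and lowered 0 in set b, and raised 8 and lowered 3 in the unsuffixed set. Egln3, a prolyl hydroxylase that marks HIF-1 for destruction and is itself a HIF-1 target, reversed, at 1378 and 1404 against 1062 to 1243 in set b and at 1421 and 1387 against 1829 to 2106 in the unsuffixed set. Bnip3, a mitochondrial protein of mitophagy, was at 1529 and 1760 against 919 to 1215 in set b and at 1096 and 940 against 1082 to 1169 in the unsuffixed set (difference 0.78 ± 0.14). P4ha1, which hydroxylates collagen prolines, was at 3754 and 3625 against 2573 to 2708 in set b, and at 1332 and 1448 against 1342 to 1692 in the unsuffixed set.

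Hif1a itself was at 7784 and 8499 with NS-398 against 5607 to 5859 in set b, and at 4873 and 4713 against 4215 to 4493 in the unsuffixed set, where the rise did not pass. Higd1a rose in both sets, by 0.85 in set b and 0.23 in the unsuffixed set on the log2 scale. Vegfa, the angiogenic factor, showed no call for the difference: it was at 2444 and 2481 against 1077 to 1321 in set b and at 1662 and 1644 against 851 to 959 in the unsuffixed set (difference 0.17 ± 0.10, limma adjusted p = 0.303). Lox, a collagen cross-linking enzyme on the same list, was lower in set b by -0.31 and lost that limma call without unsuffixed NS-398 replicate 2 (adjusted p = 0.105) or set b NS-398 replicate 2 (adjusted p = 0.0688). Mxi1, P4ha2 and Kdm3a were the remaining calls, each lost without at least 2 of the arrays (highest limma adjusted p 0.0893, 0.0896 and 0.163).

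The core letters of the HIF-1 site, ACGTG on either strand (CACGT on the other), are shown for a glycolytic and a hypoxia gene whose rise was limited to set b. In the 250 bases upstream of the transcription start given by RefSeq (build GRCr8), they occurred in 9 of 16 glycolytic and 7 of 15 hypoxia genes with a listed promoter. A gene was counted if any of its listed promoters matched. Counted this way, 18.1% of all 27457 genes had a match, and by promoter 16.6% of all 33469. A match is a description of letters only, and both groups include genes that were not called. In the lines that follow, 5′ to 3′ on the gene's strand, capitals mark every match. Overlapping matches on the strands give CACGTG. The Ldha window is chr1:106507842-106508091 on the plus strand and the Bnip3 window chr1:203154963-203155212 on the minus strand.
Ldha: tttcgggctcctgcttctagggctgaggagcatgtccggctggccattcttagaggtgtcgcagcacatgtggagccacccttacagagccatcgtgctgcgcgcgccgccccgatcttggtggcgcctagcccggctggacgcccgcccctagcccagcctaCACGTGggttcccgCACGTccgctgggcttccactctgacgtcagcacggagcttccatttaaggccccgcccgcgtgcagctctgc
Bnip3: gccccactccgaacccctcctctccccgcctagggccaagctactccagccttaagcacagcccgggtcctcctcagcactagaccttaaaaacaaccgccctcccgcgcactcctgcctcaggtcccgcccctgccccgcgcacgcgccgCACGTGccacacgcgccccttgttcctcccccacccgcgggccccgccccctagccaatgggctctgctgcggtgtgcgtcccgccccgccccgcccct

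Genes of the cell division cycle moved the other way. Of 43 mitotic genes, 15 were called lower in set b and 0 higher, with a median difference of -0.27. NS-398 lowered 17 and raised 0 in set b, and raised 10 and lowered 1 in the unsuffixed set. The count of 15 was 8 without unsuffixed NS-398 replicate 2. In DMSO and SC-560 arrays the median of these genes was 0.56 higher in set b than in the unsuffixed set, against 0.34 in NS-398 arrays.

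Nuf2, a kinetochore protein, reversed: 2045 and 1927 with NS-398 against 2180 to 2473 in set b, and 1770 and 1751 against 1335 to 1555 in the unsuffixed set (difference -0.50 ± 0.09). Ube2c, the ubiquitin ligase partner that drives exit from mitosis, was at 3163 and 3140 against 3226 to 3539 in set b and at 2340 and 2327 against 1796 to 1885 in the unsuffixed set. Ccna2, cyclin A2, was at 2166 and 2038 against 3111 to 3582 in set b, and at 2428 and 2686 against 2211 to 3293 in the unsuffixed set (difference -0.65 ± 0.12, limma adjusted p = 0.00326). Ccnb1, cyclin B1, was at 2486 and 2639 against 2974 to 3380 in set b and at 2094 and 2008 against 1730 to 2014 in the unsuffixed set. Ect2, which positions the cleavage furrow, and Foxm1, a transcription factor of the G2 phase, also reversed. Ect2 lost its call for the difference without unsuffixed NS-398 replicate 2, and Foxm1 without replicate 1. Smc4 and Smc2, the condensin pair, had differences of -1.33 and -0.69.

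Of 42 DNA replication genes, 12 were called lower in set b and 0 higher, and the difference was at or below 0 for all 42, with a median of -0.33. NS-398 lowered 6 and raised 0 in set b, and raised 13 and lowered 0 in the unsuffixed set. The count of 12 was 7 without unsuffixed NS-398 replicate 1 and 5 without replicate 2. In DMSO and SC-560 arrays the median of these genes was 0.36 higher in set b, and in NS-398 arrays the sets differed by a median of -0.03.

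The helicase that opens origins accounted for several calls. Mcm7 was at 3637 and 3415 with NS-398 in set b, against 4075 and 4074 with DMSO and 4101 and 3763 with SC-560. In the unsuffixed set it was at 3461 and 3398 with NS-398, against 2914 and 2766 with DMSO and 2907 and 2842 with SC-560, a reversal with a difference of -0.44 ± 0.08 (limma adjusted p = 0.00317). Mcm4, another subunit, reversed as well, at 2193 and 2180 against 2215 to 2839 in set b and at 2797 and 2712 against 2255 to 2401 in the unsuffixed set. Mcm10, which helps load the polymerase, was at 381 and 339 against 354 to 441 in set b and at 467 and 412 against 235 to 290 in the unsuffixed set, the rise in the second set being 0.64 on the log2 scale. Cdt1, the licensing factor, was at 1878 and 2101 against 1743 to 1976 and at 1868 and 2050 against 1298 to 1515, and lost its call without unsuffixed NS-398 replicate 2, set b NS-398 replicate 1 or set b SC-560 replicate 1. Mcm3, Prim1, Dut, Gins4, Tk1, Uhrf1, Mcm5 and Pola1 were the other calls, each lost without at least 1 array (highest limma adjusted p 0.0636 for Prim1 and 0.183 for Pola1).

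The letters TTTCGCGC (GCGCGAAA on the other strand), a form of the E2F site known from promoters of replication genes, were found upstream of Mcm2, Mcm5, Mcm6, Mcm7 and Uhrf1, 5 of 38 replication genes with a listed promoter, and of Cdk1 among 38 mitotic genes. Among the replication and mitotic genes with a match, Mcm5, Mcm7 and Uhrf1 were called. By gene, 0.277% of all 27457 hold these letters, and by promoter 0.248% of all 33469. The windows of a reversed gene and of one limited to the unsuffixed set are printed, with the match in capitals: Mcm7 at chr12:22163179-22163428 on the minus strand and Mcm5 at chr19:13488563-13488812 on the plus strand of GRCr8, from RefSeq.
Mcm7: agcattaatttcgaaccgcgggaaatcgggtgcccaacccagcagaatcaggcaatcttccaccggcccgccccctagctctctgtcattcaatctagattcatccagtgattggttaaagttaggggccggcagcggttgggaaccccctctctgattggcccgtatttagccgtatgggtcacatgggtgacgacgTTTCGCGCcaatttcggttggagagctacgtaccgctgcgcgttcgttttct
Mcm5: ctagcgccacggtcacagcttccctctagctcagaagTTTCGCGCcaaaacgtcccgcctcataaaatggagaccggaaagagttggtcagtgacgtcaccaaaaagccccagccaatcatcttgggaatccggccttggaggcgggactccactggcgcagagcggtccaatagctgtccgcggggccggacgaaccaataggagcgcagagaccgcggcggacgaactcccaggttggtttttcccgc

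**Figure D4:**
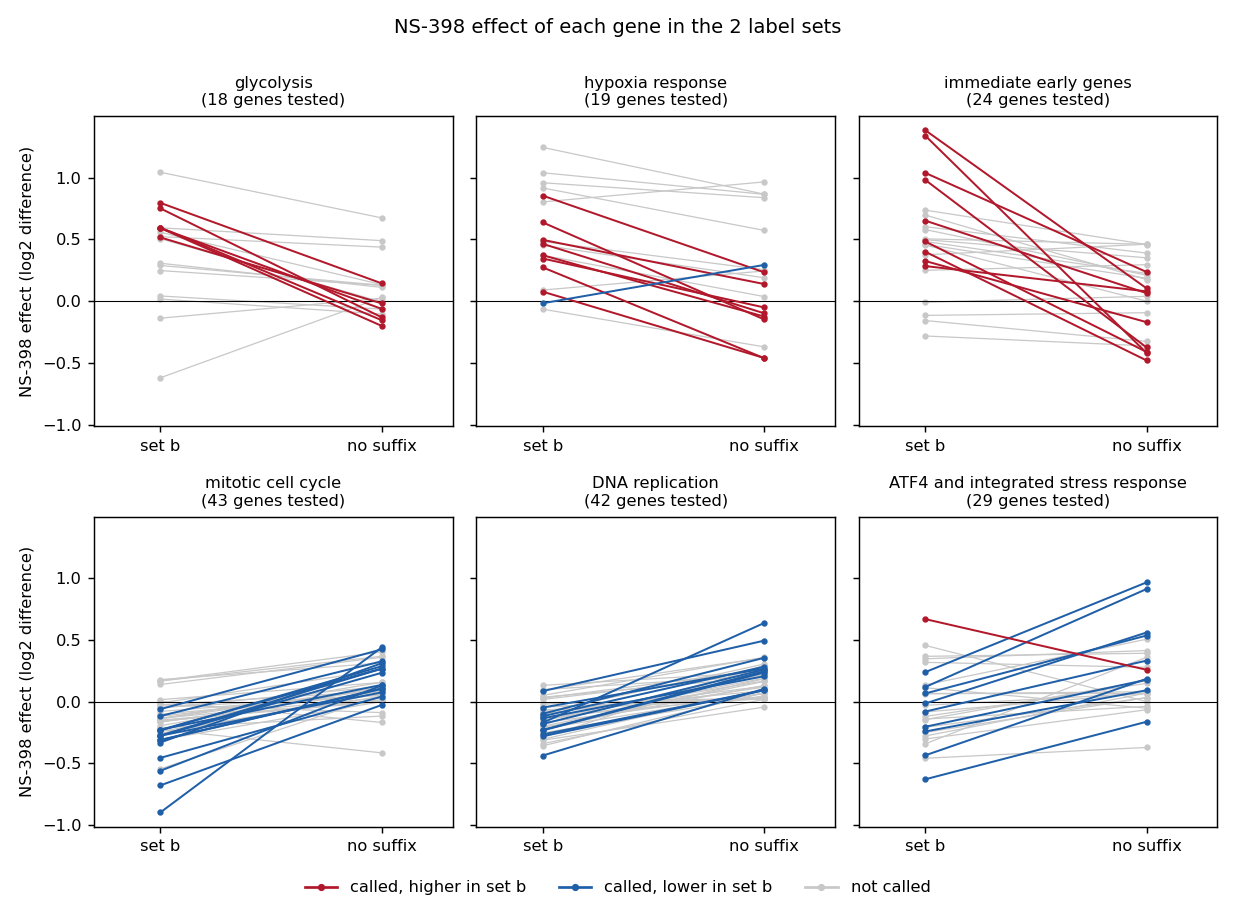
Log2 effect of NS-398 (vertical) for each gene of 6 lists in set b and the unsuffixed set, joined by a line that is red where the difference was called higher in set b, blue where lower and grey where not called. Called glycolytic, hypoxia and immediate early lines slope down to the unsuffixed set (marked no suffix), except that of Lox, and the 15 mitotic and 12 replication lines that were called slope up.

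Genes under ATF4, the transcription factor of the integrated stress response to amino acid shortage, were called lower in set b for 9 of 29 and higher for 1, with a median difference of -0.27. NS-398 raised 5 and lowered 8 in set b, and raised 9 and lowered 1 in the unsuffixed set. The count of 9 was 4 without unsuffixed NS-398 replicate 2 and 5 without set b NS-398 replicate 1. Of the 36 lists these genes differed most by set without NS-398, by a median of 1.34 on the log2 scale in favour of set b.

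Atf4 was at 8347 and 9586 with NS-398 against 8446 to 8646 in set b, and at 8844 on both NS-398 arrays against 5529 to 6630 in the unsuffixed set (difference -0.47 ± 0.09, limma adjusted p = 0.00635). Mthfd2, of mitochondrial one-carbon metabolism, was at 2906 and 3088 against 2300 to 2646 in set b, and at 605 and 617 against 220 to 326 in the unsuffixed set. The set b rise in Mthfd2 did not pass. Shmt2, which feeds that pathway from serine, was at 2980 and 2853 against 2948 to 3260 in set b and at 1299 and 1284 against 988 to 1041 in the unsuffixed set. Asns, asparagine synthetase, was at 4863 and 5536 against 4959 to 5450 in set b and at 844 and 991 against 549 to 645 in the unsuffixed set, and lost its limma call without unsuffixed NS-398 replicate 2 (adjusted p = 0.053). Psph, of serine synthesis, was lower with NS-398 in set b, at 1286 and 1460 against 1785 to 1942. The single call in the other direction was Ppp1r15a, which reverses the stress block on translation, and its call was lost without any 1 of 7 arrays, among them all 4 with NS-398 (limma adjusted p 0.0599 to 0.114).

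Aminoacyl-tRNA synthetases, which charge transfer RNAs and are partly under ATF4, were called lower in set b for 6 of 21, with 9 lowered by NS-398 in set b and 3 raised in the unsuffixed set (median difference -0.24). Iars1, for isoleucine, reversed, at 1323 and 1331 against 1580 to 1735 in set b and at 969 and 953 against 665 to 848 in the unsuffixed set. Tars1, for threonine, was at 2004 and 2294 against 2700 to 3029 in set b and at 1463 and 1398 against 1255 to 1376 in the unsuffixed set. The 6 were 2 without unsuffixed NS-398 replicate 2 or set b NS-398 replicate 1, and 3 without unsuffixed replicate 1. Nars1 and Gars1 belong to both lists.

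Targets of NRF2, the factor that answers oxidative and electrophilic stress, rose alike in number, 19 of 23 in each set, with medians of 0.54 in both. The difference was called lower in set b for 5 and higher for 0. Gclm, the modifier subunit of glutathione synthesis, was at 1100 and 1008 with NS-398 in set b, against 1048 and 898 with DMSO and 768 and 798 with SC-560. In the unsuffixed set it was at 2831 and 2910 with NS-398, against 906 to 923 without it. The effect was 0.26 in set b and 1.60 in the unsuffixed set, a difference of -1.34 ± 0.11 (limma adjusted p = 4.84e-06). Gclc, the catalytic subunit of the same enzyme, rose by 0.41 in set b and 0.93 in the unsuffixed set, and its difference lost its limma call without unsuffixed NS-398 replicate 1 (adjusted p = 0.0515). Akr1b8, Slc7a11 and Txnrd1 were the other calls, and 1 to 3 of the 5 were called without unsuffixed NS-398 replicate 1 or 2, set b NS-398 replicate 1, set b DMSO replicate 2 or set b SC-560 replicate 1.

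Extracellular matrix genes were called in both directions, 11 of 48 higher and 6 lower in set b. NS-398 raised 8 and lowered 12 in set b, and raised 8 and lowered 20 in the unsuffixed set. Chains of collagen VI, a beaded filament collagen, led the first group. Col6a2 was at 2461 and 2648 with NS-398 against 1456 to 1919 in set b, and at 394 and 324 against 575 to 710 in the unsuffixed set, a reversal with a difference of 1.30 ± 0.12 (limma adjusted p = 2e-05). Col6a1 was at 3455 and 4177 against 1770 to 2652 in set b and at 579 and 586 against 579 to 879 in the unsuffixed set.

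Col3a1, collagen III, was at 25897 and 26409 against 24877 to 28560 in set b, and at 16746 and 18076 against 21757 to 23381 in the unsuffixed set. Sparc, which binds collagen, followed the same pattern with a difference of 0.42, and another probe set of Sparc was among the 3 that differed between sets for SC-560. Fbln2, of elastic fibres, was at 7265 and 8484 against 12341 to 13245 in set b, and at 4519 and 5331 against 5012 to 6082 in the unsuffixed set, its limma call for the difference being lost without unsuffixed NS-398 replicate 2 (adjusted p = 0.0523). Lum, described above, was among the 6 called lower and was tested only through its NS-398 arrays. Counts were 7 higher without unsuffixed NS-398 replicate 1, and 1 lower without unsuffixed NS-398 replicate 2 or 3 without set b NS-398 replicate 2.

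Proteases and inhibitors that act on the matrix were called higher in set b for 5 of 19 and lower for 0, and 3 of the 5 were called without unsuffixed NS-398 replicate 2. Serpine2, an inhibitor of thrombin and plasminogen activators, was at 563 and 699 against 168 to 239 in set b and at 147 and 122 against 82.6 to 111 in the unsuffixed set. Ctsl, a lysosomal cysteine protease, was at 9192 and 9180 against 6628 to 8003 in set b and at 7710 and 8026 against 8394 to 8583 in the unsuffixed set.

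In the TGF-beta family, 6 of 28 genes were called higher in set b and 3 lower, and 1 was lower without unsuffixed NS-398 replicate 2. Inhba, the activin A chain, was at 3459 and 2886 against 1271 to 1573 in set b, and at 310 and 397 against 305 to 367 in the unsuffixed set (difference 1.07 ± 0.14). Fst, which binds and blocks activin, was at 527 and 429 against 198 to 298 in set b and at 404 and 480 against 431 to 539 in the unsuffixed set. Smad2, a transducer of activin and TGF-beta signals, was at 2971 and 3019 against 1858 to 2170 in set b and at 1261 and 1330 against 1325 to 1364 in the unsuffixed set. Bmp2 was the opposite case: 1193 and 1077 against 1061 to 1198 in set b, and 870 and 816 against 432 to 491 in the unsuffixed set (difference -0.83 ± 0.12).

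Of the 13 prostaglandin genes tested, 2 were called higher in set b and 1 lower. Pla2g4a, the phospholipase that frees arachidonic acid, was at 2016 and 1758 against 1059 to 1454 in set b, and at 1434 and 1423 against 1565 to 1655 in the unsuffixed set (difference 0.76 ± 0.14). Ptger4, a receptor for prostaglandin E2, was at 616 and 748 against 156 to 265 in set b, while its unsuffixed signals were all under 100. Ptgs2, cyclooxygenase-2 and the target of NS-398, was at 1784 and 1502 against 1081 to 1416 in set b and at 2496 and 2913 against 2309 to 2452 in the unsuffixed set, with a difference of 0.15 ± 0.12 that did not pass (limma adjusted p = 0.512). Ptgs1, cyclooxygenase-1, had signals of at most 51.7 and was not tested. The call in the lower direction was Akr1b8, lost without unsuffixed NS-398 replicate 1 or 2, set b NS-398 replicate 1, unsuffixed or set b DMSO replicate 2, or set b SC-560 replicate 1 (limma adjusted p 0.0508 to 0.113).

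Genes of fat oxidation included 1 reversal, Cpt2 of mitochondrial acyl import, at 603 and 626 against 422 to 495 in set b and at 360 and 351 against 470 to 505 in the unsuffixed set. Fabp4, a fatty acid carrier and PPAR target, rose strongly in both sets, at 898 and 1021 against 143 to 176 in set b and at 1931 and 2052 against 518 to 667 in the unsuffixed set. Its difference of 0.62 ± 0.16 (limma adjusted p = 0.0255) lost its call without unsuffixed NS-398 replicate 1 or 2, set b NS-398 replicate 2, unsuffixed DMSO replicate 1 or set b SC-560 replicate 2 (limma adjusted p 0.0525 to 0.112). Psmb9, an interferon-induced proteasome subunit, reversed, at 561 and 521 against 371 to 416 in set b and at 456 and 447 against 565 to 630 in the unsuffixed set.

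Single genes of cell shape and adhesion differed as well. Cast, the inhibitor of calpains, taken from the focal adhesion list, was at 4286 and 4035 against 2862 to 3174 in set b, and at 2165 and 2252 against 2275 to 2513 in the unsuffixed set (difference 0.61 ± 0.08, limma adjusted p = 0.000501). Fscn1, which bundles actin in cell protrusions, was at 673 and 719 against 607 to 940 in set b and at 920 and 912 against 418 to 597 in the unsuffixed set (difference -1.06 ± 0.15, limma adjusted p = 0.000567). Cdh11, a mesenchymal cadherin, was at 1293 and 1207 against 1245 to 1360 in set b and at 4795 and 4662 against 7235 to 8279 in the unsuffixed set. Gjb2, connexin 26, was at 804 and 589 against 307 to 507 in set b and at 4993 and 4888 against 4641 to 5919 in the unsuffixed set. Cdx2 rose with NS-398 in set b, to 4871 and 5314 against 3072 to 3660, and stayed between 55 and 69.8 in the unsuffixed set, against 62.5 to 124, with a difference (0.83 ± 0.21) that lost its call without unsuffixed NS-398 replicate 1 or 2 or set b NS-398 replicate 2 (limma adjusted p 0.0506 to 0.101).

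Several probe sets of a gene gave a further reading. For the 336 genes with a called representative and at least 1 other tested probe set, 415 of 459 other probe sets (90.4%) had a difference of the same sign, as did all 119 of those that were themselves called. Over all genes with several probe sets the share of the same sign was 66.7%. Of the 113 genes picked by rule for description, 111 were called for the difference, and 76 of these stayed called in all 12 fits that left out 1 array.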

How the data were processed

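Total RNA of IEC-6 cells was amplified in 2 rounds and hybridised to one-colour Affymetrix rat arrays, per the labels' protocols. The deposited values are linear signal intensities that the authors scaled to a target of 500 over all probe sets, per the labels' descriptions. The summarising software and its version are not given in the sources used here. Precision is limited by the number of arrays, 2 for each drug and set. The numbers on the arrays did not pair them: deviations of same-numbered arrays correlated from -0.0756 to 0.0626.

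For this text, 50 was added to each signal before log2, and limma 3.58.1 in R 4.3.3 was fitted to 6 group means over 12 arrays (6 residual degrees of freedom, eBayes with intensity trend). P-values were adjusted by Benjamini-Hochberg over the 17346 probe sets and called under 0.05. Errors are standard errors from that fit. The NS-398 effect is its mean less the mean of DMSO and SC-560. Since 50 is added, differences of dim probe sets depend on it, and values with 16 and 200 added are given beside the dimmest genes. Symbols came from the platform annotation updated through RefSeq (20832 probe sets with 1 gene, 436 with several, 9831 with none), and a gene was represented by its brightest probe set on average. The 36 lists hold 1114 genes, 839 of them tested.

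Named genes had 1 symbol, no predicted locus and a mean signal of at least 200 in a group. They were the 6 largest differences of each of 6 classes, up to 2 called members per direction of each list, and Ptgs1, Ptgs2, Fabp4, Gclm and Vegfa. Other genes named were chosen after their values were seen. Members and lists were chosen with earlier results of these data known. On simulated data, 11% of 200 changed probe sets among 17346 were recovered at a log2 difference of 0.5 and 73.5% at 1. The arrays gave 1490 calls, many more than 200, and recovery with that many changed probe sets was not tested. Alternatives covered the comparison arrays, filter, pseudocount, normalization, trend, replicate block and leaving out each array.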

Additional observations from a re-analysis of the deposited data

Results flagged for a closer look

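The effect of NS-398 differed between set b and the unsuffixed set, by a limma test of that difference itself, for 1490 probe sets. Of the 113 genes picked by rule, those whose effects passed in both sets with opposite signs are given with their log2 difference. Some effects within a set passed only narrowly. Limma adjusted p in the unsuffixed set was 0.0332 for Fos and 0.0347 for Dusp6. In set b it was 0.0343 for Mcm7 and 0.0321 for Marcks. Higher in set b were Nipal1 (1.91), Nr4a1 (1.76), Renbp (1.61), Ramp3 (1.41), Krt19 (1.39), Fos (1.35), Col6a2 (1.30), Plk2 (1.21) and Relb (1.17). Smaller differences of the same sign were found for Cpt2 (0.77), Psmb9 (0.77), Aldoa (0.75), Egln3 (0.73) and Dusp6 (0.54). Lower in set b were Il33 (-2.32), Cadm1 (-1.81), Pou2f2 (-1.15), Lgals4 (-1.11), Gja3 (-0.9998), Marcks (-0.97), Odc1 (-0.76), Iars1 (-0.59), Msmo1 (-0.47) and Mcm7 (-0.44). Dusp6, a phosphatase of MAP kinases, lost its limma call without unsuffixed NS-398 replicate 2 (adjusted p = 0.0557).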

How the results depend on the processing

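No called result changed sign under any setting tried. The 1490 differences numbered 960 with DMSO alone and 866 with SC-560 alone as comparison, 931 with no filter on low signals and 726 with no intensity trend. Reversed probe sets, 149 in all, numbered 86 with SC-560 alone, 93 with no filter and 77 with no trend. Those limited to 1 set, 1167, numbered 755 with DMSO alone, 688 with SC-560 alone, 741 with no filter and 590 with no trend. The SC-560 difference of 3 became 1 with no filter and 0 with no trend. Using DMSO or SC-560 alone leaves fewer arrays in the comparison; for the other settings the cause was not tested.

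Leaving out 1 array at a time gave 624 to 1579 differences, 1667 to 3293 set b effects, 1073 to 2792 for the NS-398 effect in the set without the suffix, 55 to 149 reversed, 507 to 1240 limited and 0 to 11 for SC-560. With the replicate block the difference was called for 1238 probe sets, and since the numbers do not pair the arrays this is given only as a count. Probe sets near a signal of 100 are limited by background, and 2 arrays per drug and set limit all calls.

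With 200 in place of 50 added before the log, the difference was also nearer 0 by about 1.5 times or more for Adh1c (0.725), Drp2 (1.37), Pou2f2 (-0.678), Ms4a7 (-0.808), Gpr12 (-0.744), Tff1 (-1.02), Them5 (0.673), Relb (0.738) and Fabp4 (0.237).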

Other observations

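Lists of lysosomal and ribosome biogenesis genes were assembled after the values had been seen and are described without a test. Over all named genes, 5.79% were called higher in set b for the difference and 4.66% lower. NS-398 raised 10.6% and lowered 8.97% of them in set b, and raised 8.89% and lowered 9.49% in the unsuffixed set. Of 58 lysosomal genes tested, 30 were called higher in set b and 0 lower, and the higher count was 20 to 32 when 1 array was left out. NS-398 raised 38 and lowered 0 in set b, and raised 2 and lowered 15 in the unsuffixed set, with a median difference of 0.36 on the log2 scale against 0.01 over all genes. Gpnmb, a membrane glycoprotein of lysosomes and melanosomes, was at 5554 and 5591 with NS-398 against 4215 to 4851 in set b, and at 11480 and 10664 against 15657 to 16839 in the unsuffixed set. Dpp7, a lysosomal peptidase, was at 2738 and 2952 against 1659 to 2036 in set b, and at 2053 and 1792 against 2245 to 2473 in the unsuffixed set. NS-398 arrays lay above the others in set b and below them in the unsuffixed set for both genes. Both were picked after their values were seen, so this order lends no support.

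Of 82 ribosome biogenesis genes tested, 22 were called lower in set b and 1 higher, and the lower count was 13 to 25 when 1 array was left out. NS-398 lowered 23 and raised 1 in set b, and raised 20 and lowered 0 in the unsuffixed set, with a median difference of -0.32. Ddx21, a nucleolar helicase, was at 2688 and 2813 against 3404 to 3990 in set b, and at 3153 and 3264 against 2299 to 2710 in the unsuffixed set. Nop58, a core protein of box C/D particles, was at 3353 and 3318 against 4157 to 4540 in set b, and at 4020 and 3934 against 2882 to 3716 in the unsuffixed set.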
